A study of Mus musculus with 6 samples.

Results

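Genes of the MYC network and of ribosome biogenesis were followed in liver tumours and in the liver beside them. The set was defined by 43 gene symbols, and every probe carrying one of them in the platform annotation was taken: 78 of 45281 probes, for 40 genes of 19057 with a symbol. Fbl, Npm3 and Ddx18 had no such probe and were not analysed here. The mice were C57BL/6J, and all 3 animals, hence both tissues, had received 3e+10 particles of the adeno-associated virus (AAV) vector AAV-Rian-CMV by vein on the day after birth. At the age of 6 months a tumour and liver next to it were dissected and frozen, giving 3 tumour arrays and 3 adjacent arrays from animals numbered 1293, 1309 and 1316 in the sample titles. For the tumour titled 1316 another label gives a different animal number, and the title was followed. Liver from uninjected animals was not analysed here, so the reference is liver beside a tumour that shares its vector exposure.

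MYC is a transcription factor that pairs with MAX and binds the E-box of target genes, while MXD proteins compete for MAX and oppose it. Among its best known targets are the genes for making ribosomes, a process that starts in the nucleolus, where RNA polymerase I transcribes the ribosomal RNA precursor. Small nucleolar ribonucleoproteins (snoRNPs) then modify and help to cleave that precursor, and separate sets of factors assemble the small and the large subunit. In liver the process is raised when hepatocytes enter the cell cycle, for example during regeneration.

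RNA was read on Illumina bead arrays as the brightness of a probe, and a value below is the log2 of the background-corrected, quantile-normalized signal. The signals of different probes are not comparable as levels, so genes are compared by their difference between tissues. Between 29.2% and 31.7% of probes on an array were above its estimated background, and on at least 3 arrays 31 of the 40 genes were. Of 9 measured hepatocyte markers, 7 were above background on all 6 arrays and Fgb on none. Precision is limited by having 3 arrays in each group.

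Few members were called between the tissues, all higher in tumours, and the calls depended on the processing and on single arrays, as given below. Nhp2, Polr1a and Rrp12 rose and 0 genes fell at an adjusted p of 0.05 (limma, adjusted over all 45281 probes), by 1.52-fold, 1.58-fold and 1.59-fold. That is 3 of 40 genes and 3 of their 78 probes, where 3.64% of all genes were called higher and 1.56% lower (5.21% either way, and 3.45% of all probes). Among genes above background on at least 3 arrays it is 3 of 31 members, or 9.68%, beside 7.94% of all such genes called higher and 11.4% called either way, so the share of called members was near the background. With the animal as a block, 6 members rose, Gar1, Nob1 and Nop58 being added, and 0 fell, against 4.56% of all genes called higher and 3.11% lower by that fit. The fold changes of the 31 members above background on at least 3 arrays were small, with log2 differences between −0.37 and 0.68. For the dimmer members no fold is given, because the offset understates differences of dim probes. Fewer cells of a type and less RNA per cell cannot be told apart in RNA from whole tissue.

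Most fitted differences were positive but small. The difference was positive for 31 of 40 members (77.5%), beside 48.0% of all genes, and the median difference was 0.12 in the members and −0.01 over all genes. In 11 members every tumour array read above every adjacent array (27.5%, beside 11.6% of all genes), and in 1, Wdr12, every tumour array read below (11.0% of all genes). Restricted to the 31 members above background, 9 did not overlap and were higher (29.0%, beside 18.6%), and 25 were positive (80.6%, beside 47.6%). Unadjusted p-values were under 0.05 for 11 members higher and 1 lower, beside 9.84% and 9.27% of all genes. These shares are descriptions of a list chosen with earlier results of these data known, and no test was made on the list.

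**Figure D1:**
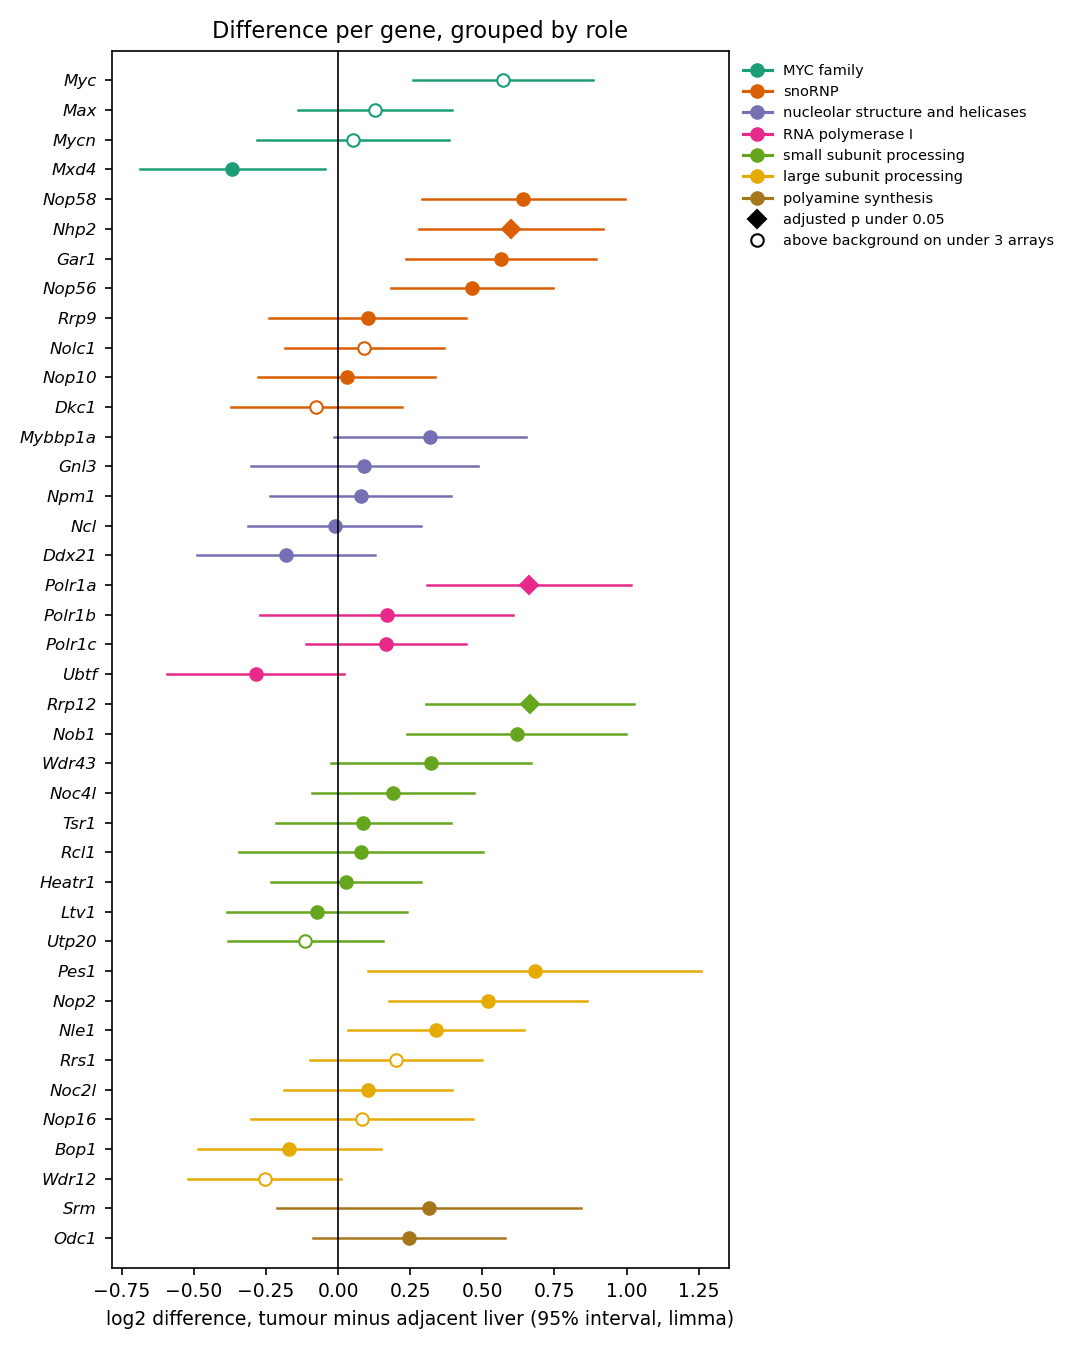
Fitted log2 difference of each of the 40 genes (tumour minus adjacent liver, 3 arrays each) with its 95% interval from limma, coloured by role. Diamonds mark the 3 genes past an adjusted p of 0.05 (Nhp2, Polr1a and Rrp12), and open symbols mark genes above background on fewer than 3 arrays, Myc among them.

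Within the MYC family, Myc itself lay near the detection limit. Its brighter probe read 6.26, 6.47 and 6.12 in the adjacent livers of animals 1293, 1309 and 1316 and 6.83, 6.69 and 7.05 in their tumours. All 3 tumours were thus above all 3 adjacent livers, but only 1 tumour array and 0 adjacent arrays were above background, so no fold can be read. The fitted difference of 0.57 (SE 0.14) missed the threshold (adjusted p = 0.0519, limma) and missed it with the animal as a fixed block (adjusted p = 0.0581). It passed with the animal as a random block (adjusted p = 0.0423) and with a trended robust variance (adjusted p = 0.0281). It also passed without the tumour of animal 1309 (adjusted p = 0.0322) and had an adjusted p of 0.212 without the tumour of animal 1316. The second Myc probe, below background everywhere, showed no difference beyond its error (−0.0018, SE 0.12).

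Mycn, a MYC relative of embryonic and neural tissue, and Max, the shared partner, were below background on every array, with fitted differences of 0.05 (SE 0.15) and 0.13 (SE 0.12). Nothing can be said of their level in either tissue. Mxd4, an antagonist that competes with MYC for MAX, was well above background, and every tumour read below the adjacent liver of the same animal. Its brightest probe gave 11.40, 11.67 and 11.75 in adjacent livers and 11.14, 11.47 and 11.10 in tumours of animals 1293, 1309 and 1316. The groups overlapped on that probe, because the tumour of animal 1309 read above the adjacent liver of animal 1293. The difference of −0.37 (SE 0.15) had an adjusted p of 0.259 and did not pass. On its 2 other probes, both above background on all 6 arrays, every tumour read below every adjacent liver, by −0.48 (SE 0.14, adjusted p = 0.0859) and −0.49 (SE 0.15, adjusted p = 0.126). The 3 probes of Mxd4 gave like differences, none of which passed.

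Promoters were searched for the E-box CACGTG, the letters that MYC and MAX bind best. The letters are their own reverse complement, so a single search covers both strands. Windows from 250 bases before to 50 bases after the gene start were given for 36 of the 43 genes in the RefSeq sequences of GRCm38.p6. The E-box was in the window of 10 of the 36 genes (27.8%), beside 8.09% of 27025 genes with a window, 9.50% of 15237 of them with a probe on the array and 7.15% of all 32851 windows. Nop2, Ltv1, Utp20, Pes1, Mybbp1a, Tsr1, Nle1, Max, Wdr43 and Mxd4 held it. The windows of Nop2, Pes1 and Mxd4 are printed because these 3 had the smallest p-values among members with an E-box. Each is 300 bases on the gene's strand, 5′ to 3′, with the E-box in capitals. The Nop2 window is chr6:125131633-125131932 on the plus strand, that of Pes1 is chr11:3963725-3964024 on the plus strand, and that of Mxd4 is chr5:34187661-34187960 on the minus strand.
Nop2: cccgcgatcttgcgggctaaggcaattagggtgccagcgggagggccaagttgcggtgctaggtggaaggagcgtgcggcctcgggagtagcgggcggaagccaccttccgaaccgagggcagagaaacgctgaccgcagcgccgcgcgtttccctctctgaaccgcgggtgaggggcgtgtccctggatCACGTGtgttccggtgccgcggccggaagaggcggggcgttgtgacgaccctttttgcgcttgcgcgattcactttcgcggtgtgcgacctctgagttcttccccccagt
Pes1: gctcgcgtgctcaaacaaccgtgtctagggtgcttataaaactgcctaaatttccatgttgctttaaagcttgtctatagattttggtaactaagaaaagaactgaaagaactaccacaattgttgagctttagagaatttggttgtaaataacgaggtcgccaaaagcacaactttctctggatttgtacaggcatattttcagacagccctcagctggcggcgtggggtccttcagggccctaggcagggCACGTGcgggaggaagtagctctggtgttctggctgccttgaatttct
Mxd4: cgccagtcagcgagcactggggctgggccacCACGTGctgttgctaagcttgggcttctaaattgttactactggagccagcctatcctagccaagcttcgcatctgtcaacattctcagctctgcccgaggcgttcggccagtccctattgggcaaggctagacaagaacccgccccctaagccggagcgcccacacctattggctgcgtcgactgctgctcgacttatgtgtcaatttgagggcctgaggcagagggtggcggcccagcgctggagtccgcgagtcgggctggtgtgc
The E-box starts 60 bases before the gene start in Nop2 (position −60), at position 3 in Pes1 and at position −219 in Mxd4. The 10 measured genes with the letters had a median difference of 0.22, ranging from −0.37 in Mxd4 to 0.68 in Pes1, and 7 of them were positive. For the 24 measured genes with a window but without the letters the median was 0.10, and 19 were positive. The called genes with a window, Nhp2 and Polr1a, lacked the letters there. A match of these letters is a description and not a binding site, and 0 of the 10 genes that held them passed the test.

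Among protein genes of the snoRNPs, of 8 measured, 1 rose (12.5%, beside 3.64% of all genes). Differences were positive for 7 (87.5%, beside 48.0%), and 4 had every tumour above every adjacent liver (50%, beside 11.6%). Over all genes above background on at least 3 arrays, as 6 of the 8 were, these shares were 7.94%, 47.6% and 18.6%. No test was made on the group. Nhp2 belongs to the H/ACA snoRNPs, which convert uridine to pseudouridine in ribosomal RNA. It read 10.66, 10.81 and 10.43 in adjacent livers and 11.43, 11.04 and 11.23 in tumours of animals 1293, 1309 and 1316. All tumours lay above all adjacent livers, by 0.60 on average (SE 0.15, adjusted p = 0.0454, limma). Gar1, a second H/ACA protein, read 9.57, 9.81 and 9.65 beside tumours and 10.06, 10.12 and 10.54 in them. Its groups did not overlap either, and the difference of 0.56 (SE 0.15) missed the threshold (adjusted p = 0.0668) and passed with the animal as a block (adjusted p = 0.0473).

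Nop10 and Dkc1, the remaining proteins of the H/ACA complex, gave other values. Nop10, the small protein that bridges the complex, was well above background and differed by 0.03 (SE 0.14, 95% interval −0.28 to 0.34), an interval that ends below the increase fitted for Nhp2. Dkc1, the pseudouridine synthase itself, was below background on all arrays with both of its probes (differences −0.07 and −0.02), so its level was not detectable here. The difference between Nhp2 and Nop10 was not tested.

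Nop56 and Nop58 form the core of the C/D box snoRNPs, which guide ribose methylation, together with the methylase Fbl. Nop58 read 8.56, 8.67 and 8.49 in adjacent livers and 9.25, 8.87 and 9.52 in tumours. Nop56 read 8.56, 8.79 and 8.67 in adjacent livers and 9.09, 9.04 and 9.29 in tumours. Both genes were higher in each tumour than in any adjacent liver, and in both the tumour of animal 1309 was the lowest of the 3 tumours. The differences were 0.64 (SE 0.16, adjusted p = 0.0522) for Nop58 and 0.46 (SE 0.13, adjusted p = 0.0799) for Nop56. Nop58 passed with the animal as a block (adjusted p = 0.0438) and without the tumour of animal 1309 (adjusted p = 0.00678), and had an adjusted p of 0.189 without the tumour of animal 1316. Rrp9, a protein of the snoRNP for early cuts of the precursor, differed by 0.10 (SE 0.16), and the snoRNP chaperone Nolc1, below background on all arrays, by 0.09 (SE 0.13).

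**Figure D2:**
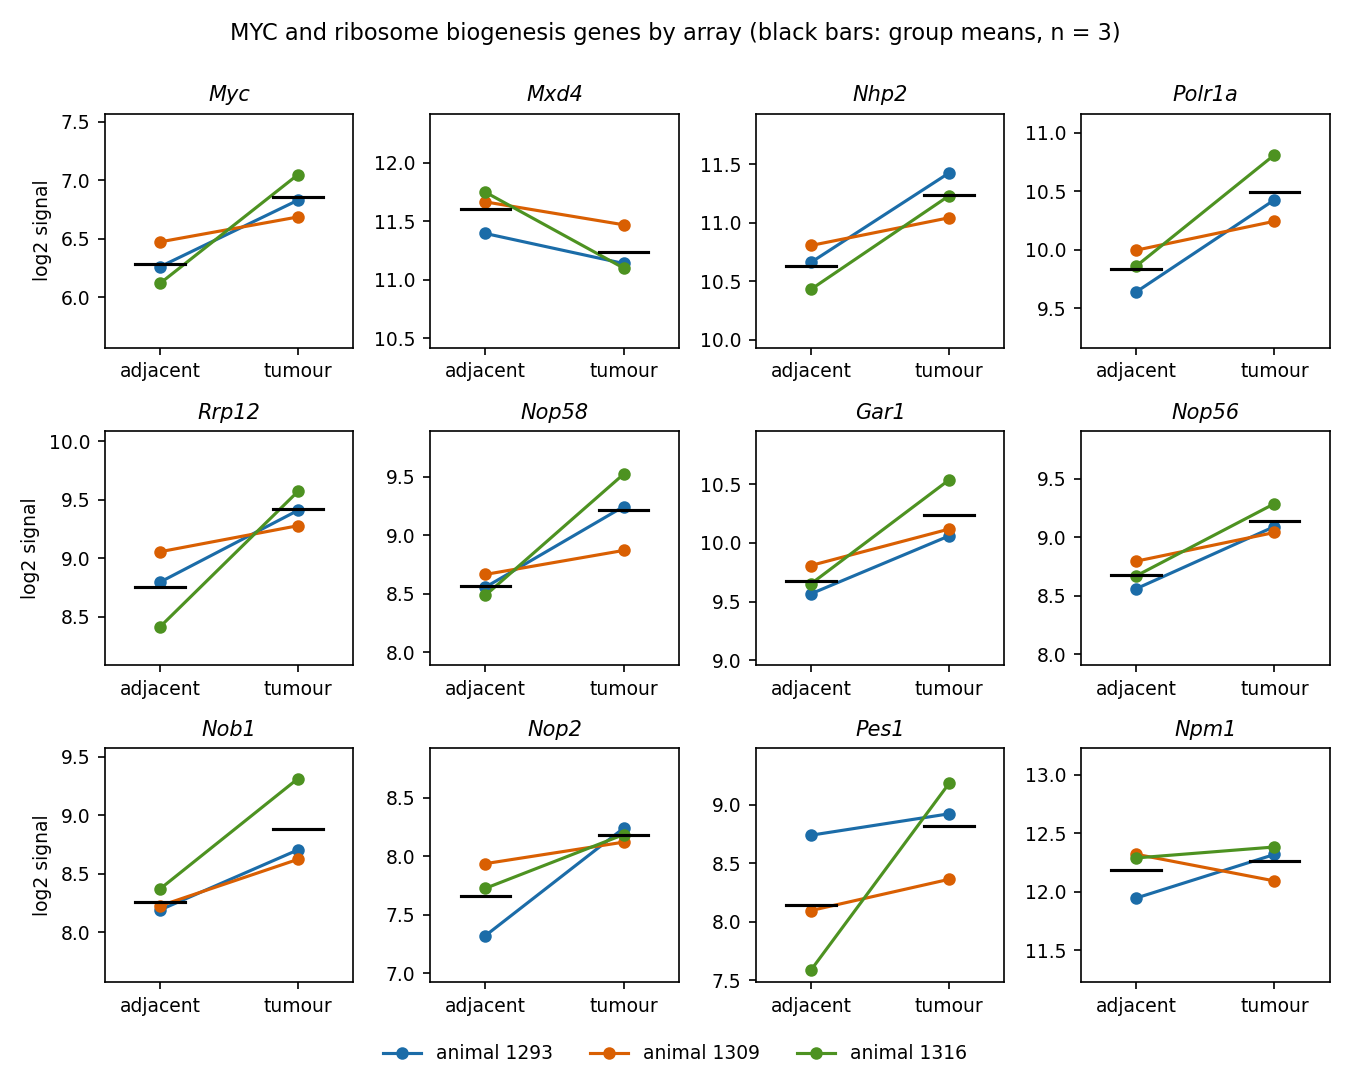
Log2 signal of the reported probe of 12 members on each of the 6 arrays, with lines joining the tumour to the adjacent liver of the same animal and black bars at group means (n = 3). Each panel spans the same range. The 3 tumours lie above the 3 adjacent livers in Myc, Nhp2, Polr1a, Rrp12, Nop58, Gar1, Nop56, Nob1 and Nop2, and not in Mxd4, Pes1 or Npm1.

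RNA polymerase I was represented by 3 subunits and a factor. Polr1a, the largest catalytic subunit, read 9.64, 9.995 and 9.86 in adjacent livers and 10.43, 10.24 and 10.81 in tumours of animals 1293, 1309 and 1316. Each tumour was above every adjacent liver, by 0.66 on average (SE 0.16, adjusted p = 0.0466, limma). The other catalytic subunit gene, Polr1b, differed by 0.17 (SE 0.20, 95% interval −0.27 to 0.61), and was higher in the tumours of animals 1293 and 1316 by 0.53 and 0.39 but read −0.42 in that of 1309. Polr1c, a subunit shared with RNA polymerase III, differed by 0.17 (SE 0.13, 95% interval −0.11 to 0.44). Ubtf, which opens ribosomal RNA genes to the polymerase, read lower in the tumour of every animal, with a difference of −0.28 (SE 0.14) that did not pass (adjusted p = 0.401), and 0.01 on a second probe above background on all arrays.

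Genes of small-subunit processing held the third called member. Rrp12, needed for export and late maturation of the small subunit in yeast, read 8.79, 9.05 and 8.41 in adjacent livers and 9.41, 9.28 and 9.57 in tumours. Its groups did not overlap, and the difference of 0.67 (SE 0.17) lay at the threshold (adjusted p = 0.0496, limma). Nob1, the endonuclease that makes the final cut of small-subunit RNA, read 8.19, 8.23 and 8.37 in adjacent livers and 8.70, 8.62 and 9.31 in tumours. All 3 tumours were higher, by 0.62 on average (SE 0.17), which missed the threshold (adjusted p = 0.082) and passed with the animal as a block (adjusted p = 0.0297). A second Nob1 probe above background read 0.55 higher (SE 0.20, adjusted p = 0.200).

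Wdr43 was higher by 0.32 (SE 0.16) and Noc4l by 0.19 (SE 0.13), neither past the threshold. Heatr1, which couples transcription to early processing, was well above background and differed by 0.03 (95% interval −0.23 to 0.29). Tsr1 (0.09), Rcl1 (0.08), Ltv1 (−0.07) and Utp20 (−0.11) did not pass, and Utp20 was below background on all arrays. Of the 9 genes measured in this group, 1 rose (11.1%, beside 3.64% of all genes and 7.94% of those above background on at least 3 arrays). In the group 0 fell and the median difference was 0.09.

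For large-subunit processing 0 of 8 measured genes passed. Nop2, a methyltransferase of large-subunit RNA, read 7.32, 7.94 and 7.72 in adjacent livers and 8.24, 8.12 and 8.18 in tumours. On this probe its tumours lay above its adjacent livers without overlap, by 0.52 (SE 0.16, adjusted p = 0.109, limma). A second Nop2 probe, above background on all arrays, read 0.22 (SE 0.13, adjusted p = 0.525), and its groups overlapped. The dimmest read 0.13 (SE 0.14). Nle1, a factor that joins the late large-subunit particle, had no overlap on its brighter probe and differed by 0.34 (SE 0.14, adjusted p = 0.273). The PeBoW complex of Pes1, Bop1 and Wdr12, which acts in maturation of the large subunit, gave 3 different readings. Pes1 read 8.74, 8.10 and 7.59 in adjacent livers and 8.92, 8.36 and 9.18 in tumours of animals 1293, 1309 and 1316. It had the largest fitted difference of the set, 0.68, with the widest error (SE 0.26, adjusted p = 0.238), since the adjacent livers spread over more than a log2 unit and animal 1316 alone differed by 1.60. Bop1 differed by −0.17 (SE 0.15), and Wdr12, below background on all arrays, by −0.25 (SE 0.12). Rrs1 (0.20) and Nop16 (0.08) were below background on every array, and Noc2l differed by 0.10 (SE 0.13).

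For genes of nucleolar structure and helicases no call was made. Npm1, nucleophosmin, read 11.95, 12.32 and 12.29 in adjacent livers and 12.32, 12.09 and 12.38 in tumours, and Ncl, nucleolin, 8.18, 8.40 and 8.40 against 8.52, 8.24 and 8.18. The groups overlapped on these probes of both genes. The difference was 0.08 (95% interval −0.23 to 0.39) for Npm1 and −0.01 (95% interval −0.31 to 0.29) for Ncl, so an increase as large as that of Rrp12 lies outside both intervals. On a second Ncl probe, above background on all arrays, every tumour read below every adjacent liver, by −0.15 (SE 0.12, adjusted p = 0.653, limma). Gnl3, nucleostemin, differed by 0.09 (SE 0.18), the helicase gene Ddx21 by −0.18 (SE 0.14) and Mybbp1a, a nucleolar MYB-binding protein, by 0.32 (SE 0.15, adjusted p = 0.379). Of the 5 measured, 0 rose and 0 fell. A difference between these genes and the snoRNP genes was not tested.

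Polyamine synthesis is a classical MYC output outside the nucleolus. Odc1, its rate-limiting enzyme, read 10.90, 10.97 and 10.43 in adjacent livers and 11.09, 10.96 and 10.99 in tumours, a difference of 0.25 (SE 0.15, adjusted p = 0.544). Srm, spermidine synthase, read 9.87, 10.67 and 9.52 in adjacent livers and 10.49, 10.44 and 10.06 in tumours, a difference of 0.31 (SE 0.24, adjusted p = 0.661). In both genes the tumours of animals 1293 and 1316 were above their own adjacent livers and the tumour of 1309 was not, by −0.01 and −0.23. Neither gene passed.

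The 3 animals contributed unequally. Over the 31 members above background the median difference between a tumour and its own adjacent liver was 0.31 in animal 1293, 0.06 in 1309 and 0.27 in 1316, beside medians of −0.02, −0.02 and 0.00 over all genes above background. Of these members 24, 21 and 22 read higher in the tumour. The adjacent liver of animal 1309 was the highest of the 3 adjacent livers in 18 of the 31 members, and the tumour of animal 1309 was the lowest of the 3 tumours in 17. Other arrays stood out as often: the adjacent liver of animal 1293 was the lowest in 20, and the tumour of animal 1316 the highest in 18. The spread within a group was like that of other genes, with a median SD of 0.19 in adjacent livers and 0.19 in tumours for the members, beside 0.17 and 0.17 for all genes above background.

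**Figure D3:**
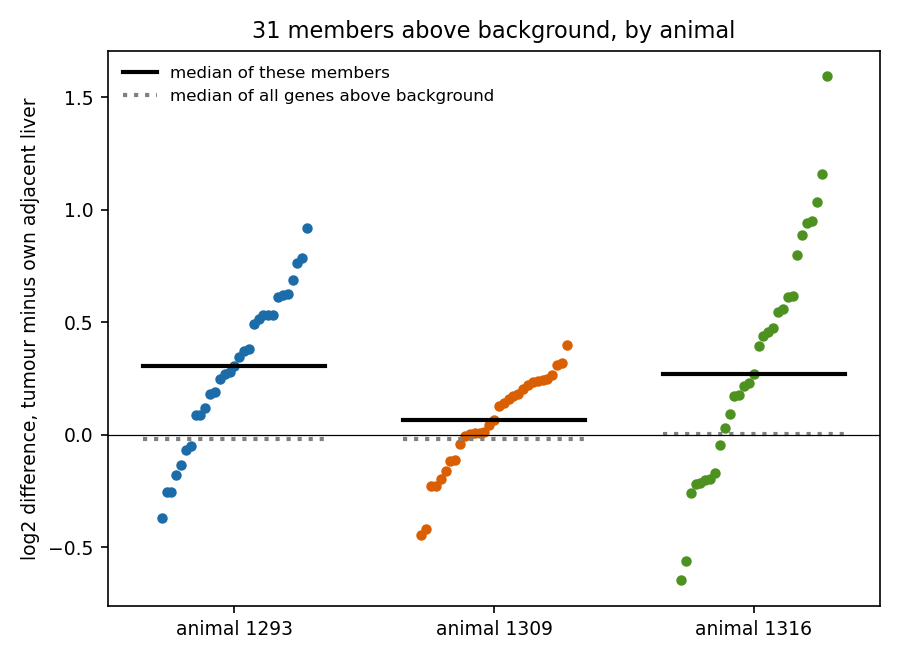
Difference of log2 signal between each tumour and its own adjacent liver for the 31 members above background on at least 3 arrays, sorted within each animal. Solid bars are member medians (0.31, 0.06 and 0.27) and dotted bars the medians of all genes above background. Members of animal 1309 span a narrower range than those of the other animals.

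Leaving out single arrays showed how far the 3 calls rest on each of them. Nhp2 passed when the tumour of animal 1309 was omitted (adjusted p = 0.0229, limma) and missed when any other single array was, at adjusted p from 0.064 to 0.195. Polr1a likewise passed only with that tumour omitted (adjusted p = 0.0172), the other omissions giving 0.0745 to 0.167. Rrp12 passed with the adjacent or the tumour array of animal 1309 omitted (adjusted p = 0.0333 and 0.0391) and missed otherwise, at 0.101 to 0.177. With that tumour omitted 6 members were called, with its adjacent array omitted 1, and with any of the 4 arrays of the other animals omitted 0. In the 6 other gene lists described below, 9 genes were called higher with all arrays. With that tumour omitted the number was 12, and with any other single array omitted 2 to 5. The share of all genes called was not computed for these omissions. In the same limma test on the authors' deposited log2 values 0 members passed, with adjusted p of 0.054, 0.0725 and 0.0774 for Nhp2, Polr1a and Rrp12, and each difference was positive there too.

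Probes of the same gene did not always agree, and dim probes had the lower median difference. Of the 78 probes, 49 were above background on at least 3 arrays, with a median difference of 0.10, and the 29 others had a median of 0.02. Differences of these 29 ranged from −0.25 to 0.57 and are understated by the offset. All 3 called probes were among the 49. Further probes above background existed for 13 genes, and 15 of 18 such probes had the sign of the reported one. The second probes of Nhp2 (−0.13), Nop58 (−0.09) and Gar1 (0.10) were below background on at least 5 of 6 arrays. Polr1a had 5 probes: the 2 next brightest, above background on all arrays, read 0.32 (SE 0.14, adjusted p = 0.330) and 0.10 (SE 0.13), and the 2 dimmest −0.21 and −0.19. The call of Polr1a thus rests on 1 of its 3 probes that were above background on all arrays.

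**Figure D4:**
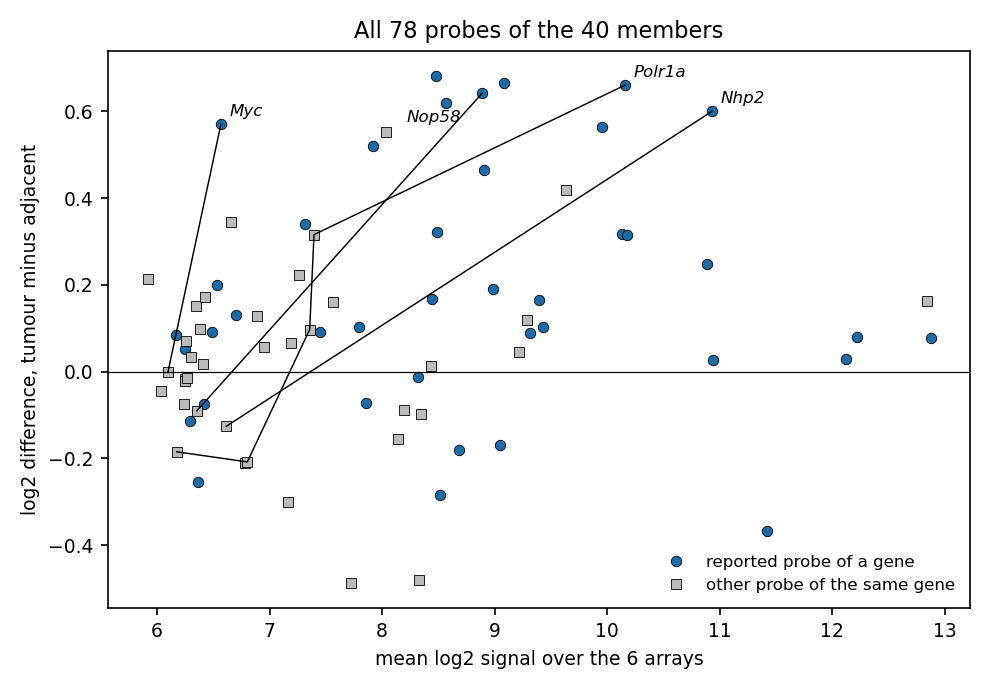
Log2 difference between tumours and adjacent liver against mean log2 signal over the 6 arrays, for all 78 probes of the 40 members. Lines join the probes of Myc, Nop58, Nhp2 and Polr1a, whose brightest probe read higher in tumours (0.57 to 0.66) and whose dimmest probe did not.

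Other genes of the same pathways were read from 6 lists with 172 measured genes. In all, 9 rose (5.23%) and 1 fell, beside 3.64% and 1.56% of all genes. Of the 172 genes 137 were above background on at least 3 arrays, and of all such genes 7.94% were called higher. The share called higher over all 172 list genes, dim ones included, was thus not above that figure. The share over the 137 alone was not computed. The median difference was 0.09 (0.16, 0.00 and 0.16 in animals 1293, 1309 and 1316). Among 48 further genes of large-subunit processing and export 2 rose. Eif6, which keeps the large subunit from joining the small one too early, read 11.15, 11.40 and 11.39 in adjacent livers and 12.21, 11.72 and 12.57 in tumours of animals 1293, 1309 and 1316, a difference of 0.86 (SE 0.19, adjusted p = 0.0285, limma). Mrto4, a placeholder for a stalk protein on the early large subunit, rose by 0.56 (SE 0.13, adjusted p = 0.0337), with no overlap. Of 44 further genes of small-subunit processing, 1 rose, the helicase gene Dhx37, by 0.98 (SE 0.18, adjusted p = 0.0112), and the median of that list was 0.00. Its adjacent livers read 7.81, 7.57 and 7.49 and its tumours 8.92, 8.17 and 8.71. For 16 further polymerase I genes (median −0.02) and 14 genes of the nuclear RNA exosome (median 0.07), 0 passed in either direction, with 1 polymerase gene lower and 1 exosome gene higher at an unadjusted p under 0.05 and 0 called with the animal as a block.

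MYC targets outside the nucleolus had a median of 0.20, and 5 of 34 rose (14.7%) and 0 fell. Of all genes 3.64% were called higher, and of those above background on at least 3 arrays, as 30 of the 34 were, 7.94%. With the animal as a block 7 rose and 1 fell, beside 4.56% and 3.11% of all genes. The 5 were Slc3a2, a subunit of amino acid transporters (1.03, SE 0.17, adjusted p = 0.00473, above background on 1 of 3 adjacent arrays), the arginine methylase gene Prmt1 (0.68, SE 0.14, adjusted p = 0.0228), the mitochondrial chaperonin genes Hspd1 (0.61, SE 0.13, adjusted p = 0.0276) and Hspe1 (0.64, SE 0.16, adjusted p = 0.0444), and Ranbp1 of nuclear transport (0.57, SE 0.14, adjusted p = 0.0405). In each of the 5 genes all tumours read above all adjacent livers. The block added the transferrin receptor gene Tfrc (1.33, adjusted p = 0.126 without and 0.0285 with it) and the stress-response gene Gadd45a (0.77, adjusted p = 0.162 and 0.0163), both higher in the tumour of every animal. It also added Id2, an inhibitor of helix-loop-helix factors, as lower (−0.86, adjusted p = 0.090 and 0.0472), with every tumour below every adjacent liver. Among 16 partners, antagonists and regulators of the network 1 rose and 1 fell. Aurka, a mitotic kinase that also stabilises MYC proteins, was below background beside tumours and at least 2.27-fold higher in them (adjusted p = 0.00089). Mlxipl, the glucose-responsive factor ChREBP, which pairs with MLX and not with MAX, fell by 1.15 (SE 0.24, adjusted p = 0.0225), from 11.72, 11.82 and 12.08 in adjacent livers to 10.82, 11.27 and 10.07 in tumours. The antagonists Mxd1 (0.32), Mxd3 (0.17), Mxi1 (−0.09), Mnt (0.02) and Mga (0.19) did not pass, and none of them was above background on all arrays.

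**Figure D5:**
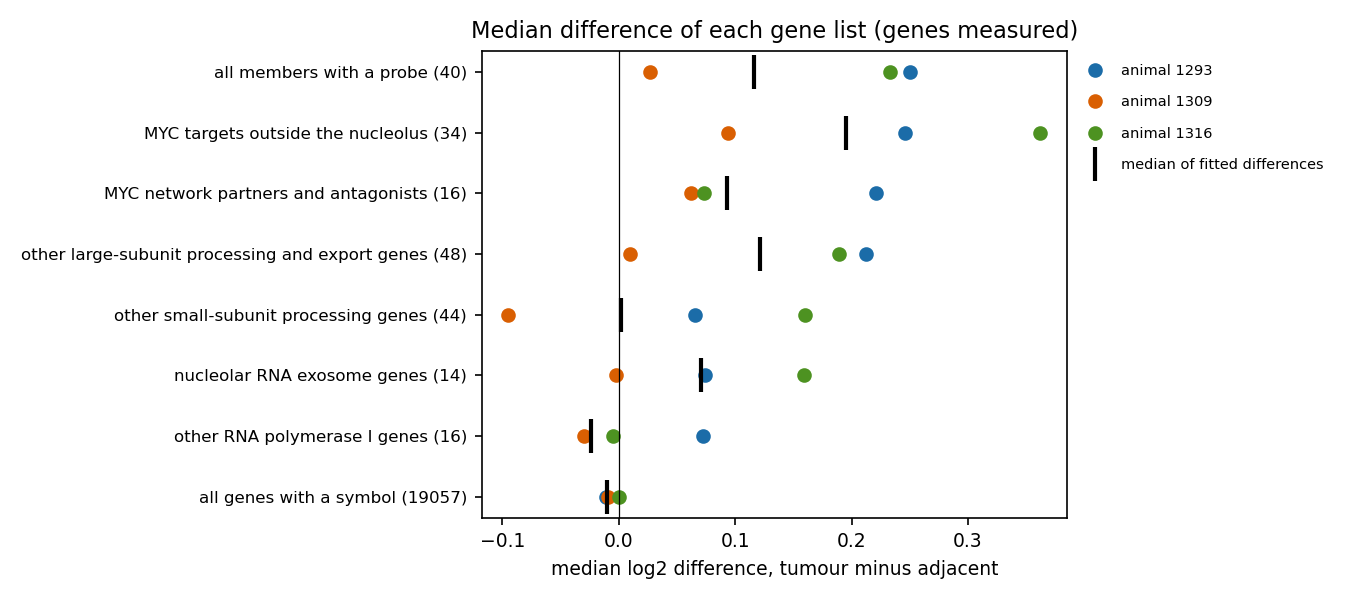
Median log2 difference of each list, as the median of fitted differences (black bars) and for each animal (points), with the number of genes measured in brackets. The members and the MYC targets outside the nucleolus have positive medians in all 3 animals, as do the network and large-subunit lists, and animal 1309 gives the lowest median in the 7 pathway lists, with all genes near 0.

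Most markers of the cell cycle were higher in the tumours. Of 9 measured proliferation markers 7 rose and 0 fell, with a median of 1.60, and their summed linear signal was 929.4 to 1515 in adjacent livers and 2319 to 4752 in tumours. Animal 1309 had the smallest median difference of the 3 animals for these markers, 0.91 against 1.54 and 1.92. Markers of stellate cells and fibroblasts were lower in sum, 8963 to 11060 against 4755 to 8014, and 3 of 9, Reln, Dcn and Lum, fell. Other genes of that list read higher in tumours: Acta2 by 1.17 (SE 0.38, adjusted p = 0.146, and 0.0163 with the animal as a block), and Col3a1, by 0.51 (SE 0.13, adjusted p = 0.061), was below background in adjacent livers. At an unadjusted p under 0.05, 3 of the 9 were higher and 3 lower. Summed signals overlapped between the groups for hepatocytes (186900 to 198400 in adjacent livers, 173000 to 201700 in tumours), leukocytes and macrophages (2956 to 4862 against 2147 to 3363), endothelium (7311 to 10600 against 6015 to 8056) and bile ducts (800.3 to 1253 against 846.5 to 1253). Of the hepatocyte markers Cps1 rose and Alb fell, by −0.84 (SE 0.15, adjusted p = 0.00835, limma). The Alb probe was dim, above background on 3 adjacent arrays and only 2 tumour arrays, so no loss of albumin RNA can be read from it. Of the other markers, 0 of 9 leukocyte, 0 of 8 endothelial and 0 of 5 biliary markers passed. With the animal as a block 1 endothelial marker, Lyve1, did (0.60 higher, adjusted p = 0.0217). Only 2 of the 8 endothelial markers had a positive difference, and the median of the 8 was −0.17. At an unadjusted p under 0.05 (limma), 1 of them was higher and 2 were lower. Ptprc, Itgam and Ms4a1 among leukocyte markers and Krt7, Krt19, Epcam and Cftr among biliary markers were below background on all arrays. The part of cell makeup and of proliferation in the values of the MYC and ribosome genes was not tested.

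By the rule for naming genes 19 members were described in full, and the 21 others had differences from −0.18 to 0.31, 15 of them positive, with adjusted p of at least 0.597. Of these 21, 16 were above background on at least 3 arrays and 5 on none. Their 95% intervals reached at most from −0.49 to 0.84.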

How the data were processed

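Total RNA of 3 tumours and 3 adjacent livers was hybridised to 1-colour Illumina bead arrays. The deposited intensity table holds linear signals of 45281 probes, neither background-subtracted nor normalized between arrays, as its values show; GenomeStudio is the tool in the submitters' processing notes. The authors' deposited log2 table covers those arrays with equal ranks, medians of 7.26 and values within 0.00504 of a quantile normalization of the intensities; its steps are not given in the sources used here. The direction and scale of both tables are settled by this match.

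Intensities were corrected with normexp (offset 50), quantile-normalized and put on the log2 scale, and both tissues were fitted with lmFit and eBayes (limma 3.58.1, R 4.3.3). P-values were adjusted by Benjamini-Hochberg over every probe, with 0.05 as threshold. Background was the mode of an array's log2 signals plus 3 SDs mirrored from below it (168.5 to 191.7 raw units). "At least" folds compare the brighter mean with, per dim array, the higher of the probe's own signal and the lowest signal above background. Differences of dim probes are understated by the offset. Platform annotation gave 1 symbol for 34885 probes, several for 18 and none for 10378. A gene was read from the probe with the highest mean signal. Tumour and adjacent liver are paired by the animal in the titles; deviations from group means correlated at 0.41, 0.25 and 0.09 within animals 1293, 1309 and 1316. The test was checked on simulated data, with changes planted in probes above background on all arrays and no pairing by animal. Recovery was required only for a change larger than that of any member. Changes of the members' size were planted too, but no recovery was required for them and none is reported here.

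The members and lists were chosen with earlier results of these data known. Named in full were the MYC family, called genes, the next 12 by p, genes with disagreeing probes at p under 0.05 and genes without overlap between groups. In other lists called genes were named, at most 4 per direction by p; Hspe1, the MXD antagonists and genes that passed only with the block, with Col3a1, were added after their values were seen. Slide or scan batches are not given in the headers, so that alternative was not run.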

Additional observations from a re-analysis of the deposited data

How the results depend on the processing

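Of 20 alternative settings, 4 were chosen after seeing the data (maximum-likelihood normexp and leaving out both arrays of each animal). Against 3 members called higher (and 3 member probes), 0 members and 0 probes were called without background correction, with an offset of 16, in the authors' table and with dim probes left out; 0 members with probes averaged or with the second brightest probe, which exists for 24 genes; 6 and 6 with the animal as a fixed replicate block, and 5 and 5 with it as a random one. With arrays scaled to their median 3 members were called, Polr1a being lost (adjusted p = 0.067) and Nop58 gained (0.0369), and with a trended robust variance 4, Myc being added (0.0281). Leaving out 1 array or animal gave 0 to 6 members and 0 to 7 probes. The share of all genes called was computed only for the main fit and the fixed block. Members without overlap, 11 in all, numbered 0 on the second brightest probes and 11 to 22 with arrays or animals left out. Fewer arrays make a lack of overlap likelier by construction, and its share over all genes was not computed for these settings. Called genes of the other lists, 9 higher and 1 lower, numbered 3 and 0 with an offset of 16, 2 higher on second probes, 0 lower without background correction, in the authors' table and with a trended robust variance, 2 lower with the fixed block, and 2 to 12 higher and 0 to 2 lower with arrays or animals left out. The members' median, 0.12, lay between 0.01 and 0.24 throughout, and 0 members were called lower in every setting. Among the 19 named members the sign turned on the second probe for Myc (−0.0018), Nhp2 (−0.1261), Nop58 (−0.0903), Nle1 (−0.0437), Wdr43 (−0.0148) and Ubtf (0.0141), and among the others for Nop10 (−0.21), Npm1 (−0.08), Noc4l (−0.10) and Bop1 (0.02); Mycn ranged from −0.0514 to 0.2297 with arrays or animals left out, turning to −0.0158 and −0.0514 without the adjacent array of 1293 or 1316 and to −0.0345 and −0.0397 without either animal. The animal block changed no other call of a member than those of Gar1, Nob1 and Nop58 (fixed) and Myc and Nop58 (random). With fewer probes tested or fewer arrays the adjustment and the spread change by construction; otherwise the cause was not tested. Signal over background limits Myc, Mycn, Max and the 6 other members above background on under 3 arrays.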
